A study of Mus musculus with 12 samples.

Results

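The interferon-stimulated antiviral genes described here are 36 mouse genes that cells switch on in response to interferon. Most of their products act against viruses or sense them, and some, such as those of Usp18 and Oasl1, restrain the interferon response. The members are given as a list of gene symbols with no threshold on a measured value. That list, though, was drawn up with earlier results of these data known. Each symbol was found in the deposited table, which holds 55487 features. Of the 36 members, 28 passed the filter on low values, a deposited log2 CPM above 0 in at least 4 of the 12 samples, and these were tested together with all 12364 genes that passed it. CPM is the read count of a gene scaled to a common library total. The other 8 members are described by their reads.

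RNA was sequenced from natural killer (NK) cells of the mouse strain B6.129S4-Ifngtm3.1Lky/J, which reports interferon gamma expression by yellow fluorescent protein (YFP), and the genotype of every sample was labelled mut/mut. All 3 groups were labelled as NK cells with HD IL-15, a cytokine that primes NK cells. Of the samples 4 were unstimulated, and the other 8 had been stimulated for 6 hours with anti-NK1.1, an antibody against an activating receptor of NK cells, and were YFP- in 4 cases and YFP+ in 4 cases. The YFP- cells had therefore met the same antibody as the YFP+ cells, no group lacked the reporter or the priming, and the labels give no culture time for the unstimulated cells and no ages. Each group has samples named f2, m2, m3 and m4, but the labels do not say that a name marks 1 mouse, so p-values measure the spread between these samples.

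Library totals ranged from 32.1 to 54.2 M reads, and 3 reads, the limit that a count of 0 allows, correspond to 0.0553 to 0.0933 CPM. Features like ribosomal RNA held 27.4 to 35.3% of the reads of unstimulated libraries, 15.9 to 30.3% of YFP- libraries and 13.7 to 29.8% of YFP+ libraries. All 8 NK cell markers examined were above 1 CPM in each group, with summed levels of 13351 to 16025 CPM for unstimulated, 9410 to 11901 for YFP- and 10010 to 13947 for YFP+ samples. Gzma, Prf1 and Nkg7 made up most of these sums. Of the other 5, 4 had their lowest means in YFP+ samples, as did most members: Klrb1c, which encodes NK1.1, averaged 308, 75.3 and 6.5 CPM in unstimulated, YFP- and YFP+ samples, Ncr1 247, 222 and 123, Klre1 228, 160 and 109, and Eomes 108, 70.5 and 40.7. Summed markers of B cells, monocytes, neutrophils, plasmacytoid dendritic cells and red cells stayed at or below 4.19 CPM in every sample. Of 6 T cell markers, Cd3d, Cd3g and Cd28 exceeded 1 CPM and gave sums of 118 to 167, 138 to 226 and 189 to 295 CPM in the 3 groups. Cd28 alone set that order, with means of 72.6, 124 and 199 CPM, whereas Cd3d averaged 17.8, 15.7 and 10.4 CPM and Cd3g 47.9, 32.5 and 20.6 CPM, and Cd4 averaged at most 0.0845 CPM. Of 5 markers of conventional dendritic cells, Zbtb46 and Xcr1 exceeded 1 CPM, with sums of 2.28 to 3.79, 18.8 to 22.0 and 7.05 to 13.6 CPM, while Flt3 averaged at most 0.104 CPM and Clec9a at most 0.0371 CPM. The part of these other cells in the results was not tested, and in bulk RNA fewer cells of a type and less RNA per cell cannot be told apart. Ifng itself averaged 3.92 ± 0.239 CPM (SD, n = 4) for unstimulated, 45.8 ± 7.37 for YFP- and 329 ± 18.2 for YFP+ samples, as the reporter labels order them.

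Type I and type III interferons signal through the kinases JAK1 and TYK2 to a complex that holds STAT2 and IRF9 and binds the interferon-stimulated response element (ISRE) in front of antiviral genes. Interferon gamma, the type II interferon that NK cells secrete, signals through JAK1 and JAK2, and its targets carry the gamma-activated site (GAS). The products act at many steps of infection: some sense foreign RNA or DNA, some cut or bind viral RNA, some deprive the virus of nucleotides, and some hold new particles at the cell surface.

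Promoter windows from RefSeq (GRCm38.p6, 250 bases before to 50 after a transcript start) were matched by symbol for 26 of the 36 members. Usp18, Mx1, Mx2, Oas2, Dhx58, Zbp1, Ifi27l2a, Rtp4, Parp9 and Parp14 were not matched. The ISRE was searched as GAAANNGAAA and the GAS as TTCNNNGAA, both on both strands, and neighbouring ISRE matches can overlap. The 4 stretches that follow are those upstream of the start among the tested members that were picked, by role, for values in each sample, and they are shown because they carry the letters that the interferon-activated complex reads. Capitals mark the ISRE matches, and each stretch is written 5′ to 3′ on the strand of its gene.
Isg15, chr4:156200840-156200919, minus strand: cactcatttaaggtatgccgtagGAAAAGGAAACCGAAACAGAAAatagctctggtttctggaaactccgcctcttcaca
Oas1a, chr5:120907526-120907574, minus strand: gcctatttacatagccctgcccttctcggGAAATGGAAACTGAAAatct
Oas3, chr5:120777690-120777769, minus strand: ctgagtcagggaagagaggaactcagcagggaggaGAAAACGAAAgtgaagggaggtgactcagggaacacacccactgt
Bst2, chr8:71537552-71537631, minus strand: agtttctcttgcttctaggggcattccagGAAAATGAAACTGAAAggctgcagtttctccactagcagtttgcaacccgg

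The capitals span 3 overlapping matches in Isg15, 2 in Oas1a, 1 in Oas3 and 2 in Bst2, and the match nearest to the start ends 57, 5, 66 and 115 bases before it. An ISRE was found in 12 of the 26 matched members (46.15%) and in 8 of the 20 of them that were tested (40%). It was found in 3.757% of the 8704 tested genes that have a window. A GAS was found in 7 of the 26 (26.92%), all among the 20 tested (35%), against 8.192% of the 8704 tested genes. Among members with a window, an ISRE was present in 8 of 14 whose mean CPM was highest in YFP- samples and in 3 of 11 whose mean was highest in unstimulated samples. The 8 include Ifit1, Ifit3, Ifit3b and Rsad2, which had few reads and were not tested. In YFP+ against YFP-, an ISRE was present in 4 of 12 members called lower and in 4 of 8 tested members not called lower. The matches of Ifih1 and Eif2ak2 lay after the start. Matches upstream of the start were also found in Ifit1, Ifit3, Ifit3b, Rsad2, Stat2 and Trim30a, whose stretches are not printed. The window of Bst2 held both motifs, as did those of Oas1a and Eif2ak2. A match is a description of letters, and binding was not measured.

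Most of the antiviral genes were lowest in the YFP+ cells: for 29 of the 36 members the mean CPM was lowest there. The exceptions were Bst2, Oasl2, Ifih1, Ifi35, Ifit3b, Mx2 and Ifi44. The 29 include members with few reads, such as Oas2, and the share of all genes with their lowest mean there was not counted. Genes in general leaned the same way. Within names, 57.7 to 66.4% of all genes tested were lower in the YFP+ than in the YFP- sample, against 26 or 27 of the 28 members tested. The 36 members together held 807, 805, 743 and 699 CPM in unstimulated samples f2, m2, m3 and m4. In the YFP- samples of those names they held 609, 644, 556 and 447 CPM, and in the YFP+ samples 371, 343, 275 and 254 CPM. The 3 groups did not overlap: every unstimulated sample was above every YFP- sample, and every YFP- sample was above every YFP+ sample. Lgals3bp and Sp100 held much of that sum, and without them the groups ranged from 363 to 414, 280 to 358 and 174 to 227 CPM, so that YFP+ samples remained apart while m2 of the YFP- samples came close to m4 of the unstimulated ones.

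In the fit of all genes (limma on the deposited log2 CPM, Benjamini-Hochberg adjusted p below 0.05), 20 of the 28 members tested were lower in YFP+ than in YFP- samples, where 18.5% of all genes were lower. Bst2, at 1 of 28, was higher, where 3.28% of all genes were higher. For 19 members all 4 YFP+ samples lay below all 4 YFP- samples, as they did for 17.8% of all genes. The fitted log2 differences ran from -3.28 for Oas3 to 0.41 for Bst2, with a median of -1.15 against -0.19 for all genes. Herc6, Mx1, Oas3, Oasl1 and Rtp4 had no YFP+ sample with a log2 CPM above 0. They passed the filter only through the other groups, and all were called lower in YFP+ samples against YFP- and against unstimulated samples. How many of all genes tested passed the filter in that way was not counted. Of the 28 values 27 were below 0, and the number was 25 to 27 under the other scalings of the samples tried, the flips being those of Oasl2 and Ifih1. When each sample was centred on its median, the median of all genes moved by 0.262, which turned their calls from 405 higher and 2286 lower to 1505 higher and 1491 lower, while 18 members stayed lower and 1 higher.

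**Figure D1:**
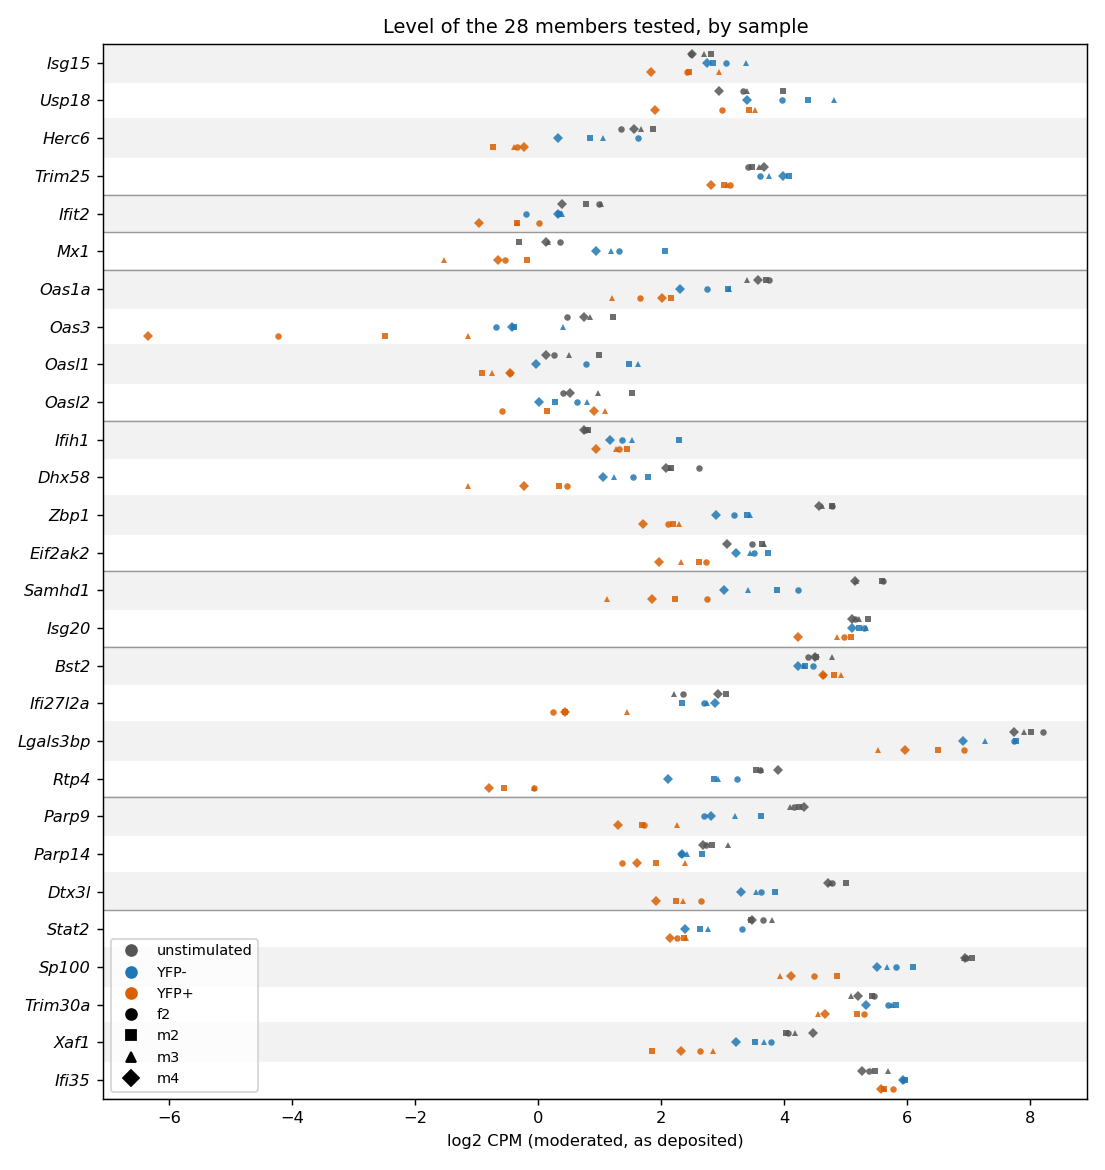
Level of each of the 28 members tested, 1 row per gene in groups by role, with log2 CPM as deposited on the horizontal axis; color stands for the group and marker shape for the sample. For 19 members the 4 YFP+ samples all lie to the left of the 4 YFP- samples, and for Bst2 they lie to the right.

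Relative to unstimulated cells, the YFP- cells were mixed. Mx1, Ifih1 and Ifi35 were higher in YFP- samples, 3 of 28 members against 30.2% of all genes, and 10 members were lower, against 20.9% of all genes. The median member differed by -0.48 and the median gene by 0.14. With library totals that leave out the features like ribosomal RNA, all genes turned from 3735 higher and 2586 lower to 3072 higher and 3444 lower, and the members from 3 higher and 10 lower to 3 higher and 14 lower. In YFP+ against unstimulated samples 21 of 28 members were lower, against 33.3% of all genes, with a median of -1.26 against -0.03. No member was higher there in limma (0 of 28, also at an unadjusted p below 0.05), against 27.5% of all genes, whereas limma called 3 higher with trimmed-mean scaling and 2 with that scaling and voom weights together. The 3 comparisons share samples, so their counts are not independent of each other.

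**Figure D2:**
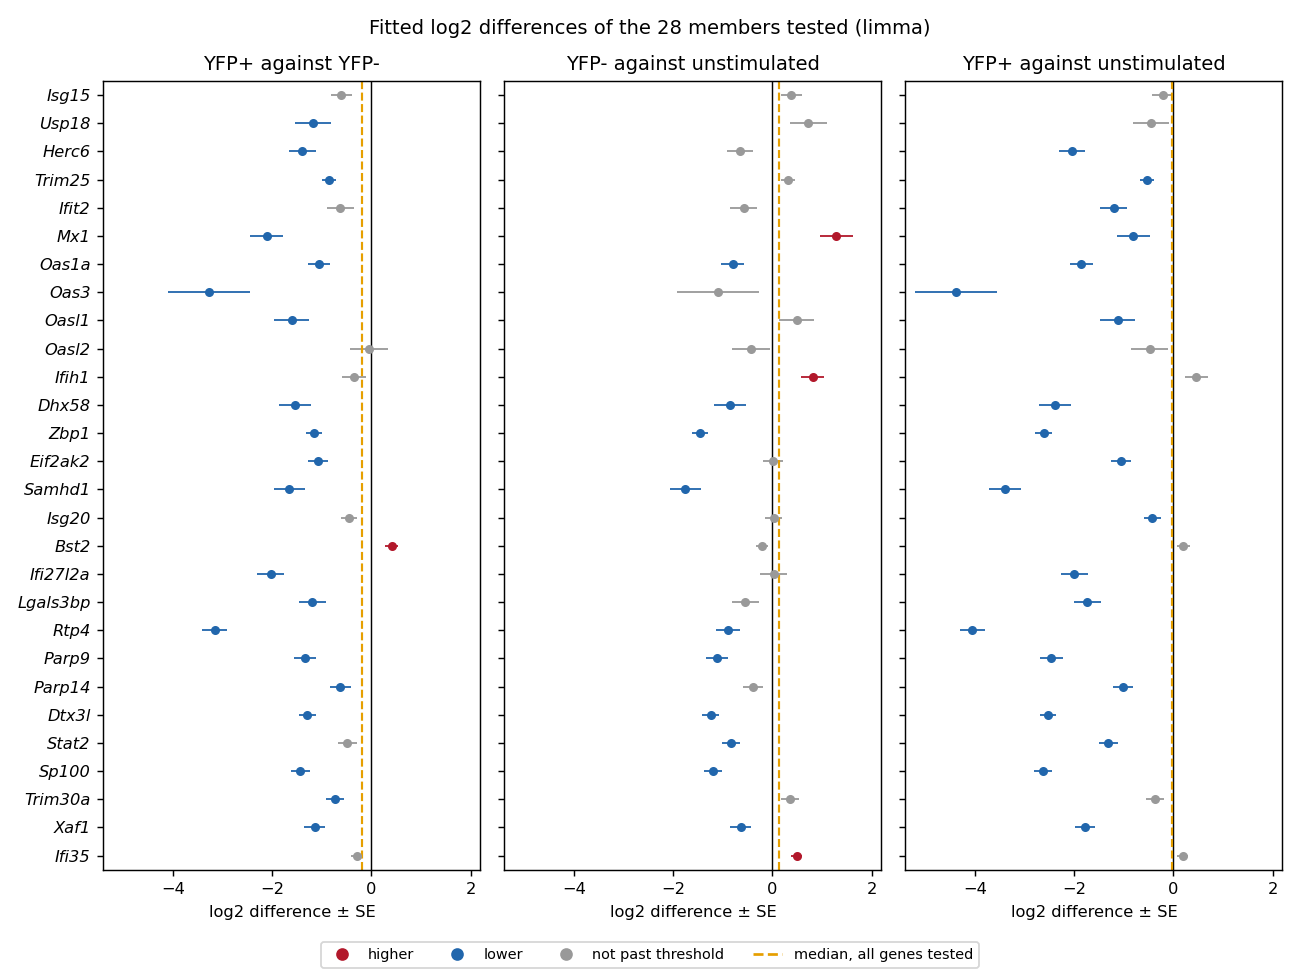
Fitted log2 difference with its standard error for each of the 28 members tested in the 3 comparisons; blue points passed the threshold as lower, red as higher, and grey did not pass, and the dashed line is the median of all genes tested. The left panel holds 20 blue points and 1 red, the middle panel 10 blue and 3 red, and the right panel 21 blue.

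The ISG15 system attaches a ubiquitin-like protein to other proteins, and 3 of its 4 members were lower in YFP+ than in YFP- samples. Isg15, the modifier itself, measured 5.61, 7.0, 6.45 and 5.67 CPM in unstimulated samples f2, m2, m3 and m4. It measured 8.28, 7.19, 10.5 and 6.73 CPM in YFP- and 5.33, 5.46, 7.65 and 3.55 CPM in YFP+ samples. The YFP- samples tended to be high. Each YFP+ sample lay below the YFP- sample of its name, but m3 of the YFP+ samples exceeded m2 and m4 of the YFP- samples. No comparison of Isg15 passed the threshold in this fit, which does not use the name (log2 difference of YFP+ against YFP- -0.60, SE 0.22, limma adjusted p = 0.067). The fit with the name as a replicate block is given at the end. Herc6, the main ligase for ISG15 in the mouse, measured 2.54, 3.66, 3.19 and 2.93 CPM in unstimulated, 3.07, 1.78, 2.07 and 1.24 in YFP- and 0.777, 0.590, 0.746 and 0.840 in YFP+ samples. All YFP+ samples lay below the YFP- samples, which overlapped the unstimulated ones at f2, and the step to YFP+ was -1.39 (SE 0.27, limma adjusted p = 0.0024). Usp18, the protease that removes ISG15 and also restrains the type I receptor, was lower in YFP+ by a log2 difference of -1.18 (SE 0.37, limma adjusted p = 0.036). Its groups overlapped, with 10.5 to 28.2 CPM in YFP- and 3.70 to 11.5 in YFP+ samples, and the call was lost in 9 of the 15 alternatives. They include those without f2 (limma adjusted p = 0.101), m2 (0.0837) or m3 (0.081), the fit of only 8 samples (0.0689), no filter (0.26), quantile normalization (0.0987), centring (0.0854) and trimmed-mean scaling without (0.0714) and with voom weights (0.0736). Trim25, a ubiquitin ligase of RNA sensing, averaged 11.6 ± 0.921 CPM (SD, n = 4) for unstimulated, 14.6 ± 2.16 for YFP- and 8.04 ± 0.726 for YFP+ samples, and was lower in YFP+ than in either other group. Its call in YFP+ against unstimulated samples (limma adjusted p = 0.005) was lost without m4 (0.0562).

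IFIT proteins bind foreign RNA and hold back its translation, and their genes lie side by side on chromosome 19. Ifit2 was the only one of the 4 to pass the filter. It measured 1.97, 1.71, 2.01 and 1.29 CPM in unstimulated, 0.858, 1.26, 1.29 and 1.24 in YFP- and 1.0, 0.774, 0.773 and 0.498 in YFP+ samples. The unstimulated samples were all above the YFP- samples, while f2 of the YFP+ samples exceeded f2 of the YFP- samples. Its log2 difference was -0.62 (SE 0.27, limma adjusted p = 0.13) in YFP+ against YFP- and -1.20 (SE 0.27, limma adjusted p = 0.0018) in YFP+ against unstimulated samples.

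Mx1 encodes a dynamin-like GTPase that traps viral nucleocapsids. Many laboratory mouse strains carry a defective allele, and the deposited annotation gives Mx1, like Mx2, as a polymorphic pseudogene. It was the only member of the 28 that passed as higher at the step from unstimulated to YFP- and as lower at the step from YFP- to YFP+. The gene measured 1.26, 0.789, 1.1 and 1.08 CPM in unstimulated, 2.46, 4.17, 2.26 and 1.90 in YFP- and 0.674, 0.866, 0.331 and 0.622 in YFP+ samples. Every YFP- sample lay above every sample of the other groups. Mx1 was thus higher in YFP- than in unstimulated samples by 1.29 (log2, SE 0.33, limma adjusted p = 0.0053) and lower in YFP+ than in YFP- samples by a log2 difference of -2.10 (SE 0.33, limma adjusted p = 0.0006). The first of these calls was lost without m2 (log2 difference 0.93, limma adjusted p = 0.0517). Between YFP+ and unstimulated samples the log2 difference was -0.81 (limma adjusted p = 0.049), a call that 11 of the 14 alternatives that could be run for it did not keep.

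The OAS family makes short oligoadenylates that activate the RNA-cutting enzyme RNase L, and its 5 members lie on chromosome 5. Oas1a measured 13.5, 13.0, 10.6 and 11.9 CPM in unstimulated, 6.70, 8.47, 8.62 and 4.93 in YFP- and 3.15, 4.44, 2.29 and 4.04 in YFP+ samples. The groups stood apart in a descending series, with steps of -0.80 (SE 0.23, limma adjusted p = 0.01) and -1.05 (SE 0.23, limma adjusted p = 0.0051). The first of these calls was lost without f2 (limma adjusted p = 0.0649), without m4 (0.0667) and with no filter (0.0649). Oas3 had 52, 88, 71 and 54 reads in unstimulated, 27, 37, 57 and 36 in YFP- and 2, 9, 16 and 0 in YFP+ samples. In CPM its groups were apart, though the lowest unstimulated sample, at 1.36 CPM, was only just above the highest YFP- sample, at 1.31. That first step did not pass (log2 difference -1.09, SE 0.83, limma adjusted p = 0.29). Mean CPM in YFP+ was 0.19 times that in YFP-, a smaller change than the fitted log2 difference of -3.28 (SE 0.83, limma adjusted p = 0.012), which depends on the small number added to the sample with 0 reads and was not called without f2 (limma adjusted p = 0.0642) or with no filter (0.116). Oasl1, which restrains Irf7 translation in the mouse, averaged 1.41 ± 0.400 CPM (SD, n = 4) for unstimulated, 2.12 ± 0.975 for YFP- and 0.632 ± 0.1 for YFP+ samples, and was lower in YFP+ than in YFP- by a log2 difference of -1.61 (limma adjusted p = 0.0054, and 0.0579 without m2). Oasl2, which keeps the enzyme activity, had no call in any comparison. Reads of near-identical stretches within this family, and within the Ifit, Mx and Trim30 families, may be split between copies.

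Among the sensors, Zbp1, which recognises Z-form nucleic acids and can trigger necroptosis, fell at both steps. It measured 27.4, 27.5, 24.7 and 23.6 CPM in unstimulated, 9.12, 10.5, 10.9 and 7.44 in YFP- and 4.33, 4.55, 4.86 and 3.24 in YFP+ samples. The 3 groups stood far apart, with steps of -1.46 (SE 0.17, limma adjusted p = 1.1e-05) and -1.16 (SE 0.17, limma adjusted p = 0.0003). Dhx58, which encodes LGP2, a helicase that tunes RNA sensing, measured 6.14, 4.45, 4.42 and 4.19 CPM in unstimulated, 2.89, 3.43, 2.35 and 2.06 in YFP- and 1.37, 1.25, 0.442 and 0.840 in YFP+ samples. It formed the same descending series, and its first step (log2 difference -0.85, limma adjusted p = 0.04) was not called without f2 (0.108), m2 (0.0579) or m4 (0.148). Its second step was -1.54 (SE 0.32, limma adjusted p = 0.0038). Ifih1, which encodes MDA5, the sensor of long RNA duplexes, averaged 1.70 ± 0.0366 CPM (SD, n = 4) for unstimulated, 3.14 ± 1.2 for YFP- and 2.37 ± 0.342 for YFP+ samples. It was higher in YFP- than in unstimulated samples by 0.81 (log2, limma adjusted p = 0.011, and 0.0703 without m2) and did not pass between YFP+ and YFP- samples (log2 difference -0.35, limma adjusted p = 0.32). Eif2ak2, which encodes PKR, the kinase that halts translation, averaged 11.1 ± 1.95, 11.2 ± 1.66 and 5.40 ± 1.22 CPM in unstimulated, YFP- and YFP+ samples, with a step to YFP+ of -1.07 (SE 0.20, limma adjusted p = 0.0017).

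Samhd1, which breaks down the nucleotides that viral DNA synthesis needs, had the largest called difference between YFP- and unstimulated samples. It measured 49.1, 48.4, 35.9 and 35.7 CPM in unstimulated, 18.7, 14.7, 10.6 and 8.10 in YFP- and 6.72, 4.65, 2.15 and 3.61 in YFP+ samples. No sample of 1 group entered the range of another, and the steps were -1.75 (SE 0.32, limma adjusted p = 0.00052) and -1.65 (SE 0.32, limma adjusted p = 0.0025). From unstimulated to YFP+ samples the mean CPM changed to 0.101 times its level. Isg20, an exonuclease that degrades viral RNA, measured 35.7, 41.1, 37.1 and 34.5 CPM in unstimulated, 39.3, 37.4, 40.2 and 34.3 in YFP- and 31.3, 34.0, 29.2 and 18.8 in YFP+ samples. YFP+ samples all lay below YFP- samples, the highest of them only just, and m4 was the lowest. The log2 difference of -0.45 (SE 0.17) did not pass (limma adjusted p = 0.072), and that of -0.42 against unstimulated samples passed at 0.042 in limma but not in 10 of the 15 alternatives.

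Bst2, or tetherin, which holds budding virus particles at the membrane, ran against the other members that passed the test. It measured 21, 22.9, 27.5 and 22.8 CPM in unstimulated, 22.2, 20.2, 19.9 and 18.7 in YFP- and 24.8, 28, 30.5 and 24.9 in YFP+ samples. All YFP+ samples lay above all YFP- samples, while the unstimulated samples overlapped both. The log2 difference of 0.41 (SE 0.13, limma adjusted p = 0.034) was lost without m2, m3 or m4 and in 3 other alternatives. Its promoter stretch carries an ISRE, as do those of Oas1a and Oas3, which were lower.

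Rtp4, a chaperone of membrane receptors that also binds viral RNA, fell the most among members with reads in every sample. It had 464, 443, 489 and 486 reads in unstimulated, 414, 356, 329 and 212 in YFP- and 46, 36, 34 and 18 in YFP+ samples. In CPM these were 12.8 ± 1.5 (SD, n = 4), 7.12 ± 2.08 and 0.776 ± 0.194. The YFP+ samples were far below all others, with a log2 difference to YFP- of -3.16 (SE 0.24, limma adjusted p = 3.5e-06), or 8.93-fold. Lgals3bp, a secreted glycoprotein that binds galectins, was the most abundant member per length in unstimulated samples, with 296, 258, 238 and 213 CPM in unstimulated, 213, 218, 154 and 121 in YFP- and 122, 90.7, 45.9 and 62.6 in YFP+ samples. The fall to YFP+ was -1.19 (log2, SE 0.27, limma adjusted p = 0.0064, and 0.0799 with no filter), although f2 of the YFP+ samples stood above m4 of the YFP- samples. Ifi27l2a, a small membrane protein, averaged 6.39 ± 1.80 and 6.38 ± 0.952 CPM in unstimulated and YFP- samples and 1.64 ± 0.717 CPM in YFP+ samples (log2 difference to YFP- -2.02, SE 0.27, limma adjusted p = 0.0002).

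Parp9 and Dtx3l encode partners in a complex that joins ADP-ribosylation to ubiquitination, and Parp14 encodes a related ADP-ribosyltransferase. All 3 were lower in YFP+ than in YFP- samples. Dtx3l (chr16:35926511-35939151, minus strand) measured 27.5, 32.2, 26.9 and 26.4 CPM in unstimulated, 12.3, 14.4, 11.6 and 9.85 in YFP- and 6.27, 4.74, 5.08 and 3.76 in YFP+ samples. Parp9 (chr16:35938470-35972605, plus strand) measured 17.8, 18.9, 17.0 and 20.0 CPM in unstimulated, 6.48, 12.3, 9.19 and 6.99 in YFP- and 3.29, 3.21, 4.78 and 2.46 in YFP+ samples. Both genes stood apart between all groups, with second steps of -1.29 (SE 0.17, limma adjusted p = 0.00017) for Dtx3l and -1.34 (SE 0.23, limma adjusted p = 0.00094) for Parp9. Their gene models in GENCODE M21 (GRCm38) overlap head to head, and the cDNA kit does not mark strand, so reads of the overlap cannot be told apart. Parp14 was lower in YFP+ than in YFP- samples by a log2 difference of -0.62 (limma adjusted p = 0.048), with overlapping groups and a call that 11 of the 15 alternatives did not keep, among them those without f2 (0.149), m2 (0.195) or m4 (0.18).

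Sp100, a component of PML nuclear bodies that silences incoming viral genomes, measured 124, 133, 122 and 123 CPM in unstimulated, 56.7, 68.3, 50.8 and 45.6 in YFP- and 22.4, 29.0, 15.2 and 17.2 in YFP+ samples. Each group was apart from the others, and the steps were -1.19 (SE 0.19, limma adjusted p = 0.00015) and -1.43 (SE 0.19, limma adjusted p = 0.00015). Ifi35, an adaptor that pairs with NMI, went another way. It measured 41.8, 44.8, 51.8 and 38.5 CPM in unstimulated, 61.3, 62.3, 62.0 and 61.5 in YFP- and 54.6, 49.4, 49.5 and 47.9 in YFP+ samples. The YFP- samples were close to each other and above all other samples. Ifi35 was higher in YFP- than in unstimulated samples by 0.49 (log2, SE 0.11, limma adjusted p = 0.0027) and did not pass between YFP+ and YFP- (log2 difference -0.30, SE 0.11, limma adjusted p = 0.079).

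Stat2, the partner of IRF9, was lower in YFP- than in unstimulated samples by a log2 difference of -0.83 (SE 0.19, limma adjusted p = 0.0023), with 11.0 to 13.9 CPM in unstimulated and 5.2 to 9.91 in YFP- samples, and did not pass at the second step (-0.48, limma adjusted p = 0.083). Xaf1, a promoter of cell death, was lower at both steps, by -0.63 (limma adjusted p = 0.021, and 0.191 without m4) and -1.14 (limma adjusted p = 0.0016). Trim30a averaged 39.4 ± 4.84, 50.7 ± 7.23 and 31.2 ± 7.99 CPM (SD, n = 4) in the 3 groups and was lower in YFP+ than in YFP- by a log2 difference of -0.73 (limma adjusted p = 0.012), which was not called without m2 (0.0505) or m3 (0.072), with no filter (0.0827), or with trimmed-mean scaling without (0.0504) or with voom weights (0.0504).

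Read as 2 steps, from unstimulated to YFP- and from YFP- to YFP+, the members fell into 7 patterns. Oas1a, Dhx58, Zbp1, Samhd1, Rtp4, Parp9, Dtx3l, Sp100 and Xaf1 were lower at both steps, 9 of 28 members, a pattern held by 8.69% of all genes tested. Usp18, Herc6, Trim25, Oas3, Oasl1, Eif2ak2, Ifi27l2a, Lgals3bp, Parp14 and Trim30a passed the threshold only at the second step, where they were lower, 10 of 28 against 7.74%. Mx1 was higher and then lower, against 2.05% of all genes, Ifih1 and Ifi35 were higher at the first step only, against 25.9%, and Stat2 was lower at the first step only, against 12%. Bst2 was higher at the second step only, against 0.841%, and Isg15, Ifit2, Oasl2 and Isg20 passed at neither step, against 40.3%. Some of these patterns shift with the processing. At the first step Herc6 (limma adjusted p = 0.057) also passed as lower in 7 of the 14 alternatives run for it, Lgals3bp in 5, Ifit2 in 4, and Oas3 and Bst2 in 3 each, while Usp18 passed as higher in 3 and Trim30a in 1. First-step calls were lost in 4 alternatives for Dhx58, 3 for Oas1a, 2 for Xaf1 and 1 each for Mx1, Ifih1, Ifi35 and Rtp4. Both steps use the YFP- samples, and passing at 1 step and not at the other does not show that the steps differ.

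**Figure D3:**
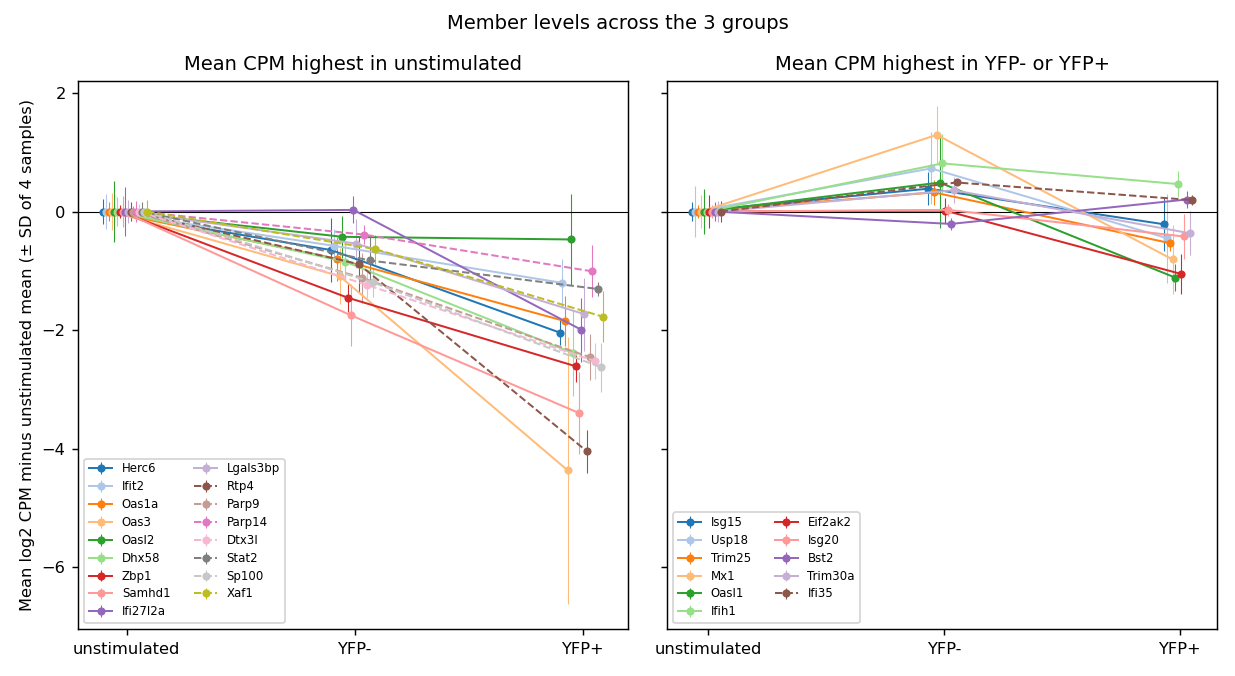
Mean log2 CPM of each member tested in the 3 groups, minus its mean in unstimulated samples, with bars for the SD of 4 samples; the left panel holds the 17 members whose mean CPM was highest in unstimulated samples and the right panel the other 11. The lines of Samhd1, Zbp1 and Sp100 fall at both steps, that of Mx1 peaks in YFP- samples, and that of Bst2 ends above its start.

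The 8 members below the filter had few reads, and for 7 of them the mean CPM was highest in YFP- samples. Mx2 is among the 7 by reads of m4 alone, and the share of all genes below the filter with their highest mean there was not counted. Ifit1 had 12, 15, 17 and 11 reads in unstimulated, 26, 78, 47 and 43 in YFP- and 8, 12, 4 and 0 in YFP+ samples f2, m2, m3 and m4. Ifit3 had 2, 8, 2 and 8 reads in unstimulated, 45, 20, 48 and 25 in YFP- and 2, 14, 0 and 2 in YFP+ samples. In CPM, Ifit1 averaged 0.369 ± 0.0511 (SD, n = 4), 1.03 ± 0.419 and 0.124 ± 0.0941, and Ifit3 0.140 ± 0.103, 0.759 ± 0.353 and 0.0903 ± 0.115, so that for both genes every YFP- sample exceeded every other sample. Ifit3b, a close copy of Ifit3, had 1, 4, 2 and 15 reads in YFP- samples and was at 0 in all samples of the other groups, which allows up to 3 reads per library.

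Rsad2, which encodes viperin, an enzyme that makes a chain-ending nucleotide, had 17, 27, 15 and 2 reads in unstimulated, 30, 98, 55 and 32 in YFP- and 24, 20, 7 and 0 in YFP+ samples. Its neighbour Cmpk2, a nucleotide kinase, had 12, 25, 12 and 22 reads in unstimulated, 42, 71, 33 and 14 in YFP- and 1, 1, 0 and 12 in YFP+ samples. Rsad2 (chr12:26442746-26456452, minus strand) and Cmpk2 (chr12:26469204-26479837, plus strand) lie next to each other and point apart. Means were highest in YFP- and lowest in YFP+ for both, though for Cmpk2 m4 of the YFP- samples, at 0.285 CPM, lay below all unstimulated samples. Ifi44 had 10, 6, 6 and 0 reads in unstimulated, 16, 18, 36 and 8 in YFP- and 6, 13, 8 and 0 in YFP+ samples. Mx2 and Oas2 were near 0 in all groups: Mx2 had 12 reads in m4 of the YFP- samples and 2 in m2 of the YFP+ samples, and Oas2 never exceeded 4 reads. These genes were not tested.

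**Figure D4:**
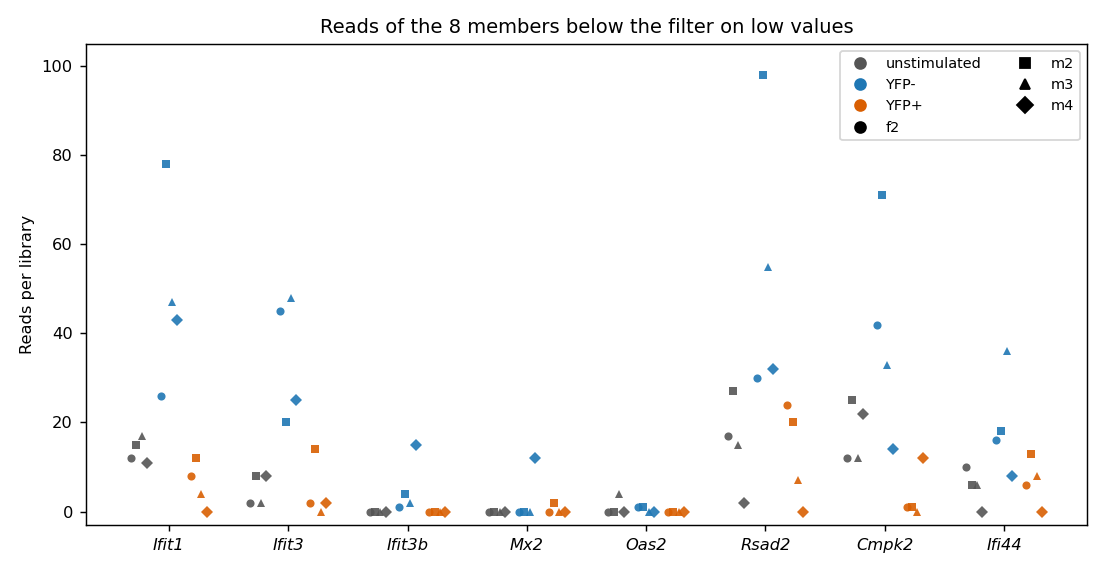
Reads per library of the 8 members below the filter on low values, with color for the group and marker shape for the sample. Ifit1 and Ifit3 have their highest points in YFP- samples, with up to 78 and 48 reads, and Mx2 and Oas2 stay near 0.

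Per kilobase of exon, the order of the members changed between groups. In unstimulated samples Lgals3bp led with a mean of 88.2 RPKM, which is CPM per kilobase of exon, followed by Bst2 at 26.1, Ifi35 at 25.6, Isg20 at 19.9 and Sp100 at 16.6. Bst2 and Ifi35, with SDs of 3.06 and 3.28, did not differ beyond their spread. In YFP+ samples Bst2 at 29.96 RPKM, Ifi35 at 29.2 and Lgals3bp at 28.2 were highest and, with SDs of 3.04, 1.69 and 11.7, did not differ beyond their spread, and Sp100 had come down to 2.77. Rtp4 went from rank 11 of 36 with 5.99 RPKM in unstimulated samples to rank 20 with 0.364 RPKM in YFP+ samples. Ifit2, Herc6, Oas3 and Mx1 were below 1 RPKM in every group, as were Parp14, Oasl1, Oasl2, Ifih1 and all members that were not tested.

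Within groups, m4 tended to be low. It was the lowest sample for 21 of 28 members among YFP- samples, for 14 among YFP+ samples and for 13 among unstimulated samples. How often m4 was lowest over all genes was not counted. Its median deviation from the group mean was -0.32 (log2) over the members in YFP- samples, against -0.01 over all genes tested. In YFP+ samples it was -0.22 against -0.03, and in unstimulated samples -0.099 against -0.064, close to all genes. With m4 left out of all groups 19 members were lower in YFP+ than in YFP- samples and none was higher. In YFP- against unstimulated samples, leaving it out gave 4 higher and 7 lower.

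The pathway around these genes was read from lists of genes known to act in it. Of the ligands, 20 type I and III interferon genes were in the table and none passed the filter. Counted in each group by itself, 13 had no read in unstimulated samples, 13 had none in YFP- samples and 18 had none in YFP+ samples. The highest value was 6 reads, of Ifnz in an unstimulated sample. Type I and III receptors are built from Ifnar1, Ifnar2, Ifnlr1 and Il10rb, and the type II receptor from Ifngr1 and Ifngr2. Of the 6 receptor genes 4 were tested, and all 4 were lower in YFP+ than in YFP- samples, where 18.5% of all genes were lower, with a median log2 difference of -1.08 against -0.19 for all genes. Ifnar2 measured 43.8, 40.3, 40.5 and 41.9 CPM in unstimulated, 24.8, 34.2, 22.7 and 23.2 in YFP- and 13.8, 14.3, 9.97 and 9.21 in YFP+ samples, a descending series without overlap (second step -1.16, SE 0.17, limma adjusted p = 0.00042). Ifnar1 averaged 33.9 ± 2.24, 34.5 ± 7.96 and 23.1 ± 1.61 CPM (second step -0.55, limma adjusted p = 0.021) and Il10rb 45.7 ± 3.81, 25.1 ± 2.81 and 12.9 ± 3.6 CPM (second step -1.0, limma adjusted p = 0.0026). Ifngr1 measured 590, 573, 488 and 226 CPM in unstimulated, 265, 266, 198 and 187 in YFP- and 83.9, 73.3, 13.9 and 47.8 in YFP+ samples (second step -2.33, SE 0.47, limma adjusted p = 0.0031). The YFP+ samples were below all others, and m4 of the unstimulated samples lay within the YFP- range. Ifngr2 and Ifnlr1 had at most 15 and 3 reads in a library.

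Of 7 kinases and factors, 5 were lower in YFP+ than in YFP- samples, against 18.5% of all genes, and none was higher, against 3.28%. Their median log2 difference was -0.68. Irf7, the factor that amplifies type I interferon, measured 39.0, 33.9, 38.1 and 41.2 CPM in unstimulated, 23.4, 20.7, 23.1 and 12.8 in YFP- and 6.66, 5.01, 5.61 and 3.11 in YFP+ samples, with no overlap (second step -1.98, SE 0.24, limma adjusted p = 7.9e-05). Irf9, the DNA-binding partner of STAT2, measured 18.4, 19.1, 13.8 and 12.3 CPM in unstimulated, 31.9, 35.9, 32.7 and 29.3 in YFP- and 19.1, 14.1, 6.38 and 7.31 in YFP+ samples. Like Mx1, it was highest in YFP- samples, with steps of 1.05 (limma adjusted p = 0.0089) and -1.61 (limma adjusted p = 0.0016). Irf1 averaged 37.9 ± 7.59, 32.2 ± 5.61 and 9.74 ± 5.58 CPM, Jak1 319 ± 16.3, 218 ± 41.5 and 135 ± 16.8 CPM and Tyk2 27.8 ± 2.11, 37.1 ± 6.54 and 24.9 ± 3.53 CPM (SD, n = 4), and all 3 were lower at the second step. Jak2 and Irf3 did not pass there, and Jak2 was higher in YFP- than in unstimulated samples, at 72.6 ± 12.9 against 30.4 ± 4.39 CPM.

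**Figure D5:**
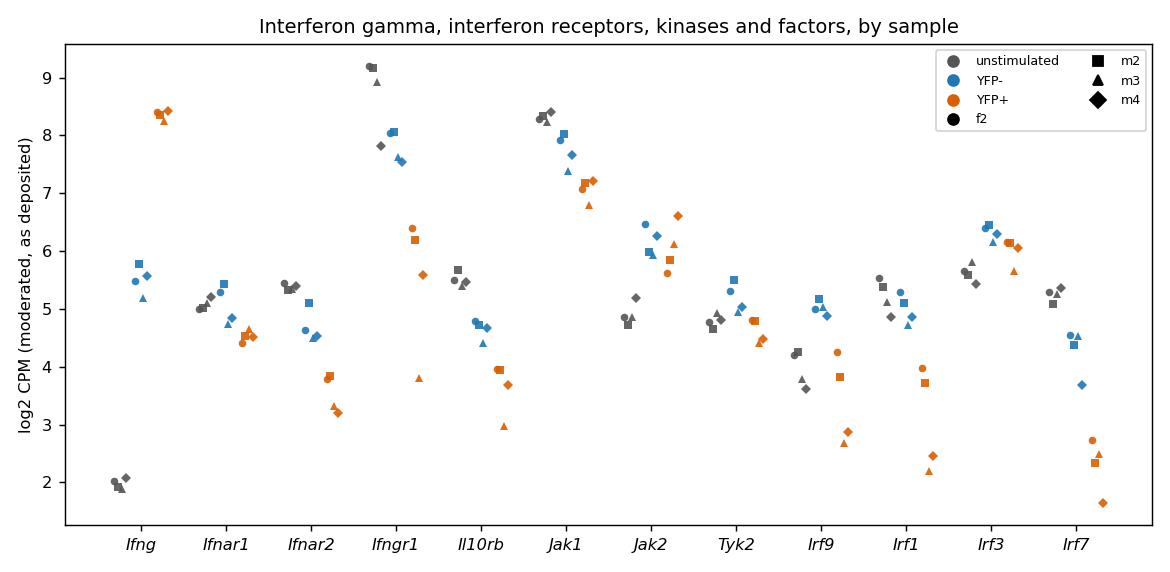
Level of interferon gamma, the receptor genes tested, and the kinases and factors in every sample, with log2 CPM as deposited on the vertical axis, color for the group and marker shape for the sample. Ifng is highest in YFP+ samples, whereas the 4 receptors, Irf1 and Irf7 are lowest there and Irf9 peaks in YFP- samples.

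Other interferon-stimulated genes outside the 36 members were counted in a list of 38, of which 33 were tested. Of these, 23 were lower and 1 was higher in YFP+ than in YFP- samples, against 18.5% and 3.28% of all genes, with a median log2 difference of -1.26 against -0.19 for all genes. In YFP- against unstimulated samples 9 were lower and 1 was higher, against 20.9% and 30.2% of all genes, so that the share lower was near that of all genes. In YFP+ against unstimulated samples 27 were lower and 1 was higher, against 33.3% and 27.5%. The largest falls to YFP+ were those of Ifi213, a DNA-binding protein of the PYHIN family (-3.45, limma adjusted p = 0.0025), Apol9b (-2.97, limma adjusted p = 6.8e-05) and Ddx60, a helicase (-2.45, limma adjusted p = 0.0063), all at levels below 1.6 CPM in YFP- samples on average. Ifitm2, which blocks the fusion of virus with the cell, was the 1 that was higher, at 133, 132, 137 and 100 CPM in YFP- and 147, 203, 248 and 175 CPM in YFP+ samples (log2 difference 0.61, SE 0.19, limma adjusted p = 0.034), with 199 to 321 CPM in unstimulated samples. As with Bst2, all 4 YFP+ samples exceeded all 4 YFP- samples.

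Targets known for their response to interferon gamma were in a list of 10, of which 7 were tested and 6 were lower in YFP+ than in YFP- samples, against 18.5% of all genes, with a median log2 difference of -1.49. The largest differences were those of Cxcl10, a chemokine, at -3.75 (SE 0.66, limma adjusted p = 0.0013), Irf1 at -1.91 (SE 0.34, limma adjusted p = 0.0014) and Tap1, a peptide transporter, at -1.49 (SE 0.39, limma adjusted p = 0.014). Cxcl10 measured 0.708, 0.447, 0.954 and 0.493 CPM in unstimulated, 4.90, 4.95, 3.94 and 4.18 in YFP- and 0.0409, 0.461, 0.801 and 0.591 in YFP+ samples. It was high in all YFP- samples and nowhere else. Of 7 genes that restrain interferon signalling, Usp18 and 3 others (Socs1, Ptpn6 and Pias1, named after their values were seen) were lower in YFP+ than in YFP- samples, against 18.5% of all genes. Isg15 and Usp18 of these 7 are also members, and Socs1 is also counted among the interferon gamma targets. Irf1 is counted both there and among the kinases and factors, so the counts of these lists share genes. Of 9 tested genes of nucleic acid sensing upstream of interferon, 3 were lower (Ddx58, Sting1 and Ikbke, also named after their values were seen), against 18.5% of all genes, and none was higher, against 3.28%.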

How the data were processed

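RNA was sequenced from 12 samples of mouse NK cells in 3 groups of 4. Per the labels' protocols, cDNA was made with the SMARTer Ultra Low kit, which does not mark strand, and read as paired ends. The submitters' processing notes name bcl2fastq, STAR 2.7.9a, Subread, featureCounts 2.0.3 and GRCm38. The deposited table holds moderated log2 CPM values made by the authors. All of them (100%) gave whole reads once a prior of 0.5 reads, scaled to the library total, was taken off (distance from a whole number at most 2.47e-10). From 55774 lines, 287 repeats with the same values were dropped. A gene needed a log2 CPM above 0 in 4 or more samples to be fitted in limma 3.58.1 (R 4.3.3) with 1 coefficient per group, no covariates and an intensity trend. P-values were adjusted by the Benjamini-Hochberg method over all 12364 genes, and the scripts were tested on simulated data. RPKM values used the exon length of GENCODE M21, which holds 55227 of the 55487 identifiers, and CPM values came from the whole reads.

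The members and lists were chosen with earlier results of these data known. One gene of the list of kinases and factors is not reported here and is left out of its counts. Values in each sample were given, per role, for the member highest per length and the member with the largest difference between YFP+ and YFP-, and for members called against the majority. A few others are given by reads, range or mean. The 15 alternatives covered the fit, the filter, the scaling, a pseudocount and leaving out each sample name. Library totals of 32.1 to 54.2 M reads set the precision, and counting limits cover counting error only.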

Additional observations from a re-analysis of the deposited data

Results flagged for a closer look

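In 7 of 104 sets of 4 samples (a member in a group), 1 sample stood farther from the others, relative to the whole range, than Dixon's critical value allows, where chance gives about 5.2 at 1 in 20. No sample was involved more than once within a group. Dhx58 was high in f2 of the unstimulated samples (ratio 0.8461), with 234 reads against 136 to 176. Ifi27l2a was high in m3 of the YFP+ samples (ratio 0.8293), with 98 reads against 43 to 73. Ifit2 was low in f2 of the YFP- samples (ratio 0.9102), with 38 reads against 56 to 62.

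The other 4 rest on few reads. Mx2 had 12 reads in m4 of the YFP- samples and 2 in m2 of the YFP+ samples, each against 0 in the other samples of its group (ratio 1 in both). Oas2 had 4 reads in m3 of the unstimulated samples against 0 (ratio 1), and Ifi44 had 0 in m4 of the unstimulated samples against 6 to 10 (ratio 0.8320).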

How the results depend on the processing

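Of 84 member results (28 genes, 3 comparisons), 47 kept direction and side of the threshold under all alternatives that could be run, and of 1239 values 1101 did so, 74 lost the call, 39 gained one and 25 changed sign. Without 1 sample name, members lower numbered 16 to 19 in the comparison of YFP+ with YFP-, 7 to 10 in that of YFP- with unstimulated and 18 to 19 in that of YFP+ with unstimulated samples, and members higher 0 to 1, 1 to 4 and 0 to 0. The other alternatives gave 16 to 22, 6 to 14 and 16 to 22 lower, each over the members it could test. With log2 CPM above 2 fewer members were tested, and 16 were lower in both comparisons of YFP+ samples. With no filter all 36 members were tested, of which 16 were lower in YFP+ than in YFP- samples, 15 of them among the 28. For YFP+ against YFP-, 0 members were higher with only the 8 samples compared, with no filter and with totals without features like ribosomal RNA. For YFP- against unstimulated, 5 were higher with only 8 samples and 1 with log2 CPM above 2, and 6 were lower with no filter. For YFP+ against unstimulated, trimmed-mean scaling put 3 members higher, the same scaling with voom weights 2, centring 2 and quantile normalization 1. The median of members minus that of all genes (-0.96, -0.62 and -1.23 in the order above) was -1.18 and -0.0283 in the first and second with no filter, taken over all 36 members. Over the 28 it was -1.15 and -0.48 there, since the median of all genes was 0. Under a pseudocount of 1 CPM it was -0.72, -0.45 and -1.03, and for YFP+ against unstimulated it was -1.75 with log2 CPM above 2 and -1.06 with quantile normalization. The cause of these changes was not tested.

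Sign changes were among small differences that passed no threshold. Oasl2 in YFP+ against YFP- became 0.0038 (pseudocount), 0.38 (quantile), 0.22 (centring), 0.11 (trimmed mean) and 0.0603 (trimmed mean with voom weights), and Ifih1 0.0138 (quantile). Isg15 in YFP+ against unstimulated became 0.0509 (quantile). In YFP- against unstimulated, quantile normalization, centring and totals without features like ribosomal RNA gave -0.12, -0.12 and -0.17 for Eif2ak2, -0.18, -0.11 and -0.15 for Isg20 and -0.0523, -0.11 and -0.15 for Ifi27l2a, and Eif2ak2 was also -0.0081 (trimmed mean) and -0.0172 (the same with voom weights). Without 1 sample name Oasl2 ranged from -0.3572 to 0.3458, Eif2ak2 from -0.0269 to 0.0926, Isg20 from -0.0088 to 0.0820 and Ifi27l2a from -0.1393 to 0.2742 in these comparisons.

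Samples of 1 name were not treated as paired: 6 of 12 same-name correlations of deviations exceeded 0.1 (range -0.0587 to 0.3753), and 6 of 12 were best with their own name. For YFP+ against YFP- the correlations of f2, m2, m3 and m4 were 0.054, 0.35, 0.37 and 0.17. Of these, m2, m3 and m4 were best with their own name. Only f2 (0.10) was so for YFP- against unstimulated, and f2 (0.38) and m4 (0.14) for YFP+ against unstimulated. With the name as a replicate block, 22 members were lower and 1 was higher in YFP+ than in YFP- samples, 11 and 4 in YFP- than in unstimulated, and 21 and 0 in YFP+ than in unstimulated samples. Isg15 (limma adjusted p = 0.0284) and Isg20 (limma adjusted p = 0.0399) then passed for YFP+ against YFP-.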
